A study of Mus musculus with 20 samples.

Results

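Brain pericytes in the Nestin-EGFP+ fraction of the mouse dentate gyrus were described at 3 ages from single-cell RNA-seq. Barcodes entered if they held 1000 UMIs or more, 500 genes or more and no more than 10% mitochondrial UMIs. Those with at least 5 UMIs of Vtn, at least 2 UMIs in the sum of Kcnj8, Abcc9, Higd1b and Atp13a5, and at most 5 UMIs in the sum of the smooth muscle genes Acta2, Tagln and Myh11 were taken as pericytes. This gave 527 of 13684 cells at postnatal day 5 (P5), 2839 of 5351 at 12 weeks (12w) and 2107 of 2797 at 24 weeks (24w), or 5473 of 21832 cells in all. Their share of the cells was 3.85% at P5 (95% exact binomial interval 3.53 to 4.19), then 53.1% (51.7 to 54.4) and 75.3% (73.7 to 76.9) in the adult libraries. These shares are those of the sorted suspension, and they are a description because measured genes chose the members.

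The study followed neural stem cells and their progeny with age, and sorted EGFP+ cells from the papain-dissociated dentate gyrus of Nestin-EGFP mice (C57BL/6), with dead cells left out by 7-AAD, for 10X Genomics libraries. In this line a Nestin-driven transgene marks the cells, so that only pericytes bright enough for the EGFP gate were measured. There was 1 library per age for RNA and 1 per age for chromatin accessibility (scATAC-seq), with no further treatment or allele. How many animals went into a library is not given in the sources used here, and with 1 library per age no difference between ages could be tested.

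Pericytes are mural cells that sit within the basement membrane of capillaries, in contact with the endothelium, which recruits them through PDGF-B and the receptor Pdgfrb. In the brain they help to form and keep the blood-brain barrier, deposit matrix, carry solutes and set capillary tone. Their ATP-sensitive potassium channel is made of Kcnj8, the pore, and Abcc9, its sulfonylurea receptor. Smooth muscle cells, the mural cells of arterioles, share much of this programme and add the contractile proteins Acta2, Tagln and Myh11. EGFP driven by Nestin regulatory sequence is a standard mark of neural stem cells, and Nes itself is also transcribed in vascular cells.

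Levels are UMIs pooled over the pericytes of a library, per 1000000 pooled UMIs (CPM). Where 3 values are listed they are in the order P5, 12w and 24w, and a pair of adult values gives 12w first. Intervals are exact at 95%, Poisson for a level and conditional binomial for a ratio, and cover counting error only. Pooled totals were 3286234, 6155924 and 4993096 UMIs, so that 3 UMIs, taken as the limit for a gene with 0 UMIs, correspond to 0.913, 0.487 and 0.601 CPM. Single pericytes were deeper at P5, with a median of 5601 UMIs against 1880 at 12w and 2066 at 24w, and of 2303 genes against 1158 and 1263. The P5 table listed 14129 barcodes, none under 1495 UMIs, whereas both adult tables listed 737280. Between libraries 98 cell barcodes were shared by P5 and 12w, 63 by P5 and 24w and 26 by 12w and 24w. Sex-linked transcripts parted the libraries. At P5, 137 pericytes had UMIs of Xist alone, 157 of Y-linked genes alone and 37 of both, whereas 2580 pericytes at 12w had Xist and none had Y-linked UMIs. At 24w 602 had Y-linked UMIs alone and 1 had Xist alone, so age and sex cannot be told apart between 12w and 24w.

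Levels of pericyte genes are given next. The first 5 served in the selection, so that they cannot check the label and are a description. Vtn, the adhesion protein vitronectin, had 2281 CPM at P5 and 15336 and 16993 CPM in adults, with medians of 12, 28 and 35 UMIs per cell. Kcnj8 was counted at 917 CPM at P5 and 1911 and 1875 CPM in adults, and its partner Abcc9 at 369 CPM at P5 and 363 and 312 CPM in adults. Higd1b, a mitochondrial protein of the hypoxia-inducible domain family, gave 3819 CPM at P5 and 3438 and 2909 CPM in adults. Atp13a5, a P-type ATPase typical of brain pericytes, gave 248 CPM at P5 and 816 and 1144 CPM in adults. So Vtn and Atp13a5 were highest at 24w, Kcnj8 was lowest at P5, and Abcc9 and Higd1b were lowest at 24w. The fixed limit of 5 Vtn UMIs was a larger share of a cell's UMIs in adults, where cells were shallower. Genes outside the selection were high as well. Of these Rgs5, Pdgfrb and Notch3 are mural genes. Rgs5 was higher in smooth muscle cells at each age, as given below, so that it does not set pericytes apart from them. Rgs5, a G protein regulator of mural cells, had 5948 CPM at P5 and 5426 and 5329 CPM in adults, and 526 of 527, 2818 of 2839 and 2083 of 2107 pericytes held a UMI of it. Pdgfrb, the PDGF-B receptor, had 671 CPM at P5 and 1036 and 1092 CPM in adults, and Notch3, the receptor for endothelial Notch ligands, had 234 CPM at P5 and 360.3 and 403 CPM in adults. Nes, whose regulatory sequence drives the reporter, had 94 CPM at P5 and 80.7 and 108 CPM in adults in pericytes and 33.7, 53.4 and 99 CPM in the other cells. The transgene itself was not among the genes listed.

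**Figure D1:**
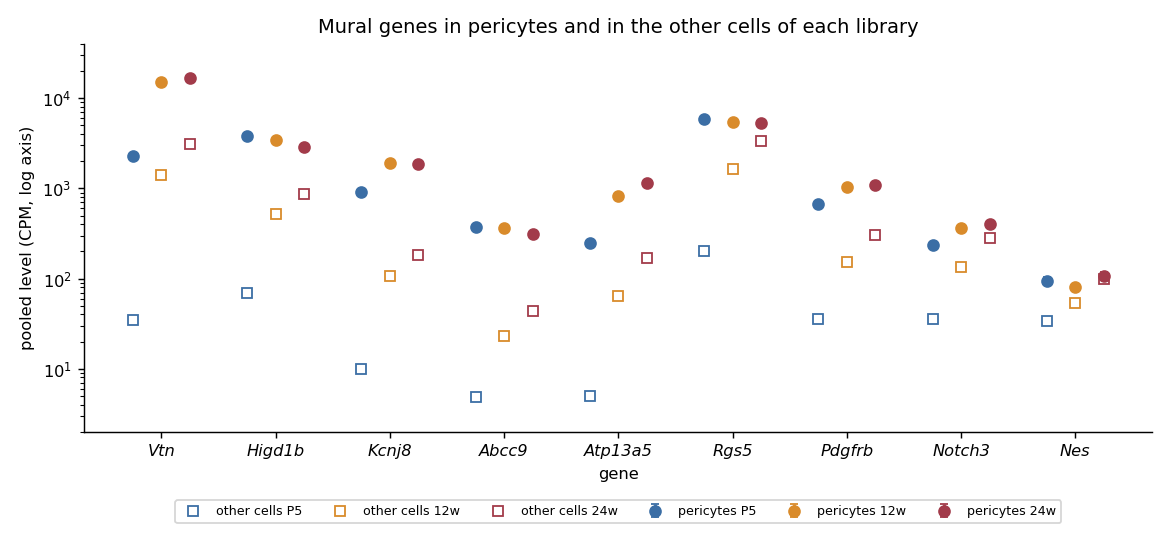
Pooled level of 9 genes (CPM, log axis) in pericytes (filled circles, bars are exact 95% Poisson intervals) and in all other cells past the same filters (open squares) at P5, 12w and 24w; the first 5 genes served in the selection. Pericytes lie above the other cells of their library for each gene, by 29.5-fold at P5 and 1.58-fold at 24w for Rgs5, and Nes is the closest, at 108 against 99 CPM at 24w.

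The reference sequence before the start sites of Vtn and Kcnj8 is shown because the scATAC-seq peaks over these promoters, given further below, were longer in both adult libraries than at P5. Sequences are from RefSeq (GRCm38.p6), 5′ to 3′, ending before the first annotated exon, in lower case with CG dinucleotides in capitals. Vtn lies at chr11:78498870-78499090 on the + strand with 7 CG in 221 bases, and Kcnj8 at chr6:142571615-142571864 on the - strand with 6 CG in 250 bases.
Vtn: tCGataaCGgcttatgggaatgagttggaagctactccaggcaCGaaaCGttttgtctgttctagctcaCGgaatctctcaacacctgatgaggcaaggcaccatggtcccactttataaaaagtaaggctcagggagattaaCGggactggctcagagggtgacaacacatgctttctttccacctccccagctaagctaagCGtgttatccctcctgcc
Kcnj8: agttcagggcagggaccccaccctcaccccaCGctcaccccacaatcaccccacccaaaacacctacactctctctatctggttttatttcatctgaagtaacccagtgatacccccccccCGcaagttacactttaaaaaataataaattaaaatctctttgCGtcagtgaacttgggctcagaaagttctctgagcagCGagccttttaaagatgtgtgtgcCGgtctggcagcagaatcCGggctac

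The edges of the selection were less clean in adults than at P5. Cells just inside the Vtn threshold, with 5 UMIs, numbered 31, 59 and 46 at the 3 ages, and their Rgs5 level was 7573, 1346 and 960.1 CPM. Just outside, with 4 UMIs, there were 32, 78 and 45 cells with 6977, 585 and 913 CPM of Rgs5. Neural marker genes took 0.633%, 1.32% and 1.60% of the UMIs of the cells just inside. All pericytes had 0.605%, 0.361% and 0.395%, and the other cells 2.15%, 1.53% and 1.08%. In adults the neural share at this edge was thus nearer to that of the other cells, and at 24w above it. With 1 UMI of the partner genes 4, 91 and 71 cells fell outside, and with 2 UMIs 0, 78 and 77 fell inside. The latter 78 and 77 adult members had 788 and 823 CPM of Rgs5, far under the level of all pericytes. Their neural shares, 1.799% and 1.479%, were above those of the other cells. By these values the label pericyte is doubtful for them as a group, and they were kept in the pools. The smooth muscle limit passed through 8, 22 and 15 cells with 5 UMIs inside and 3, 22 and 19 with 6 UMIs outside. Vtn RNA was also found in cells of other types. After each cell was thinned to 1000 UMIs, 1.6%, 45.8% and 73.7% of the neural cells held a Vtn UMI at P5, 12w and 24w, against 83.7%, 98.8% and 98.3% of the pericytes. Unthinned, the shares in neural cells were 6.38%, 87.3% and 91.4%.

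RNA of other cell types was present in the pericytes and moved with age, and its part in the results was not tested. Over 41 neural markers the pooled share of pericyte UMIs was 0.605%, 0.361% and 0.395%, against 2.15%, 1.53% and 1.08% in the other cells, and the median pericyte had 0.407%, 0.112% and 0.0848%. Endothelial markers took 0.0555%, 0.118% and 0.159%, and 8 of the 15 were counted as higher at both adult ages under the rule given below, led by Ly6c1 at 1.22 CPM at P5 and 48.1 and 122 CPM in adults. Cldn5, the main claudin of brain endothelium, had 4.26 CPM at P5 and 83.5 and 212 CPM in adults. Ependymal markers took 0.0271%, 0.0800% and 0.106%, with 1 of 7 higher at both adult ages, Rarres2 at 226 CPM at P5 and 777 and 835 CPM in adults. Rarres2 made up most of this share. At 12w the list took 0.0309% in the other cells, 0.0662% in smooth muscle cells and 0.0741% in the median pericyte. The share in pericytes therefore cannot be read as RNA of ependymal cells alone. Blood markers took 0.00739%, 0.000828% and 0.178%, the last with 1 cell in which they were 72.2% of UMIs. Microglial markers took 0.000730%, 0.00117% and 0.00200%, and only 1 of the 13, Mrc1, reached 20 UMIs. Of the oligodendrocyte genes 6 were higher and 6 lower of 13. For astrocytes and neural stem cells the count was 1 higher and 3 lower of 13, Fabp7 among the lower at 2103 CPM at P5 and 185 and 131 CPM in adults, and for neurons and their precursors 1 higher, Eomes, and none lower of 13. Fibroblast and leptomeningeal genes gave 4 higher and 3 lower of 11, Dcn having 4.56 CPM at P5 and 18.7 and 37.3 CPM in adults. Smooth muscle genes gave 5 higher of 8, Myh11 among them with 2.74 CPM at P5 and 22.9 and 24.2 CPM in adults. Of these, 3 are genes whose sum the selection held to at most 5 UMIs per cell at each age. Cells were deeper at P5, so the same limit allowed a lower CPM there. Of all genes 12.5% were higher and 6.44% lower by this rule, so that the ependymal, astrocyte and neuronal counts of higher genes lay near or under the share over all genes. With free RNA subtracted the median log2 ratio of the smooth muscle list turned to -0.71 at 12w and -4.10 at 24w.

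To follow this, pericytes with at most 0.5% neural, 0.2% endothelial and 0.2% haemoglobin UMIs, called low-RNA pericytes here, were pooled apart, a subset chosen after seeing the data. They numbered 341 (64.7%), 2654 (93.5%) and 1934 (91.8%) cells. Their values are given beside many of the genes that other cell types hold in quantity, but not for the neural, endothelial and haemoglobin genes that defined the subset and are low in it for that reason. Of the genes counted below as higher in adults 1268 were counted in this subset too, as were 534 of the lower genes.

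Pericytes were first set against all other cells in the same library, which were mostly neural at P5. Among 9504 genes outside the selection that had 20 UMIs where higher, 71 (0.747%) were at least 4-fold higher in pericytes at every age, and among 10089 genes 67 (0.664%) were at least 4-fold lower. Since genes chose the cells, these are descriptive. The counts depended on asking for all 3 libraries, being 261 higher without the 24w library, and 203, 110 and 302 lower without the P5, 12w and 24w library. Without smooth muscle and endothelial cells among the others they were 369 higher and 169 lower, after thinning 44 and 160, and in low-RNA pericytes 92 and 709. Of the 10 with the largest ratios, 4 code for secreted signals. Nodal, a ligand of the TGF-beta superfamily known for patterning the early embryo, had 25.3 CPM at P5 and 321 and 262 CPM in adults, against 0.159, 12.2 and 18.5 CPM in the other cells. Nts, the neuropeptide neurotensin, had 216 CPM at P5 and 188 and 241 CPM in adults, against 3.78, 15.2 and 21.3. Unlike Nodal, it was of like level at P5 and in adults. Dkk2, a secreted Wnt modulator, had 31 CPM at P5 and 44.2 and 30.6 CPM in adults, and the guidance cue Ntn1 58.1 CPM at P5 and 84.5 and 88.5 CPM in adults.

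Enzymes, regulators and a membrane protein made up the other 6. Ggt1, the gamma-glutamyltransferase that breaks down extracellular glutathione, had 17.3 CPM at P5 and 185 and 184 CPM in adults, and Pla1a, a phospholipase for phosphatidylserine, 34.4 CPM at P5 and 173 and 184 CPM in adults. Both were several-fold higher in the adult pools than at P5. Hic1, a transcriptional repressor of mesenchymal cells, had 144 CPM at P5 and 282 and 318 CPM in adults, and Msc, a basic helix-loop-helix repressor, 27.4 CPM at P5 and 32.5 and 25 CPM in adults. Chp2, a calcineurin-like EF-hand protein, had 30.7 CPM at P5 and 19.3 and 15.8 CPM in adults, and Tmem45a 132 CPM at P5 and 316 and 272 CPM in adults. In the other cells the highest of these 6 was Hic1 at 48.6 CPM at 24w.

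The reference sequence before the Nts start site is shown because a peak over this promoter was listed in both adult chromatin libraries and not at P5, although Nts RNA was counted in pericytes at each age. It covers chr10:102490487-102490668 on the - strand, with 2 CG in 182 bases.
Nts: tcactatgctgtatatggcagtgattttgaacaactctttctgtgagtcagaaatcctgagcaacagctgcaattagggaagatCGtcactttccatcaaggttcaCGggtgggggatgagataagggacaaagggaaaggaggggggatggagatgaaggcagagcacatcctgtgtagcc

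Of the genes at least 4-fold lower in pericytes, the 10 with the largest ratios are given here. Atp1b1, a sodium pump subunit, had 49.9 CPM at P5 and 29.1 and 33.4 CPM in adults, against 213, 139 and 200.2 CPM in the other cells. Nkain4 was at 32.3, 34.4 and 45.9 CPM against 170.3, 211 and 202, Dtna, a dystrobrevin of astrocytes, at 25.6, 16.1 and 19 against 115, 81.6 and 99.9, and Lfng, a fringe enzyme that modifies Notch, at 25, 14 and 18 against 108, 78.2 and 89.2. For the last 3 the low-RNA pericytes held 13, 12.5 and 10.3, 8.98, 6.66 and 4.88 and 8.48, 5.09 and 6.84 CPM, lower again. Eva1a, Rmst and Tmem59l behaved alike, with at most 14.6 CPM in pericytes. Sncg, Smim5 and Ngb, the neural globin, were also lower. Sncg, gamma-synuclein, was high in adult smooth muscle cells, with 990.3 and 1229 CPM, against 3.67 CPM at P5, which is 3 UMIs. Against other cells without smooth muscle and endothelial cells, the log2 ratio of Sncg at 12w was 0.50 and that of Ngb at 24w 0.74, no longer lower. At their other ages both genes stayed lower in pericytes.

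Smooth muscle cells, defined by more than 5 UMIs of Acta2, Tagln and Myh11, were the other mural class, with 101, 493 and 251 cells, and endothelial cells, with 13, 74 and 75, were the other vascular class. Without the limit on these 3 genes the pericytes would have been 587, 3220 and 2327 cells instead of 527, 2839 and 2107. Most smooth muscle cells thus also met the Vtn and partner thresholds, and this limit alone parted them from pericytes. The 2 mural classes differed in degree. Rgs5 was higher in smooth muscle, at 6554, 7883 and 7758 CPM, than in pericytes, and Heyl, a Notch target, lay close in both at P5, with 218 against 212 CPM. Kcnj8 reached 191, 295 and 288 CPM and Abcc9 56.2, 63.2 and 66 CPM there, both under the pericyte levels, a gap that the selection fixes in part, since pericytes had to hold UMIs of these genes or their partners. Nodal had 3.67, 42.3 and 33 CPM in smooth muscle, Ggt1 3.67, 17.8 and 18.3 and Nts 121, 51.5 and 35.4. The reverse held for Ccl19, a chemokine for CCR7, with 0, 334 and 173 CPM in smooth muscle and 0, 78.6 and 69.3 in pericytes, and for the olfactory-type receptor Olfr558, with 2.44, 223 and 195 and 0, 18 and 18.2. Endothelial cells held the organic anion transporter Slc22a8 at 338, 472 and 559 CPM and the chemokine Cxcl12 at 384, 1304 and 1733 CPM, above pericytes in both cases. Across 8206 genes in smooth muscle, 1004 (12.2%) were higher and 561 (6.84%) lower at both adult ages than at P5, and no gene was counted in opposite directions in the 2 classes.

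Ages were compared by a rule of size, since each had 1 library. A gene was counted as higher or lower in adults if it differed at least 2-fold from P5 in the same direction at both 12w and 24w, with at least 20 UMIs where higher. Both ratios rest on the same P5 library. Of 11915 genes 1485 (12.5%) were higher in adult pericytes and 767 (6.44%) lower, and for 611 and 437 of these the whole counting interval lay past 2-fold at both ages. The split depended on the scaling, with 1064 higher and 1082 lower after scaling by the median log2 ratio and 1162 and 983 with TMM factors. After thinning to 1000 UMIs it was 1331 and 406, and with P5 pericytes of the adult library's sex 1192 and 390. Both of these leave fewer P5 UMIs under the same minimum of 20, so that fewer genes could be counted as lower. In all pericytes too, 20 UMIs are a higher CPM at P5 than in adults, since the P5 pool is the smallest. The median log2 ratio over all 11915 genes was 0.19 at 12w and 0.25 at 24w, and the list medians and counts below are to be read against this shift and the shares of 12.5% and 6.44%. Of the higher genes 189 were also at least 2-fold above the other cells at both adult ages, and of the lower genes 164 were at least 2-fold above them at P5. Selection genes were not left out of the counts by age, and 6 of the 8 were among the 1485 higher genes. Neural cells were 12901 of the 13157 other cells at P5, 1822 of 2512 at 12w and 315 of 690 at 24w. Medians quoted below for the other cells therefore compare unlike mixes of cell types between ages.

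Secreted factors were among the genes furthest above P5. Ccl19 had 0 UMIs at P5 and 484 and 346 in adults, at least 86.1-fold and 75.9-fold higher with the limit of 3 UMIs at P5, and it was found in few cells, 0%, 3.7% and 3.8% of the pericytes thinned to 1000 UMIs against 0%, 13% and 6.37% of the smooth muscle cells. Unthinned, the shares were 0%, 5.04% and 5.08% and 0%, 15.6% and 8.37%. Spp1, the secreted phosphoprotein osteopontin, had 2.43 CPM at P5 and 225 and 234 CPM in adults, 92.4-fold (95% interval 46.7 to 214) and 96.3-fold (48.7 to 223) above P5, and only 0.635, 15.7 and 18 CPM in the other cells. Pde4c, a cAMP phosphodiesterase, rose from 2 UMIs to 417 and 397, or 0.609 CPM at P5 and 67.7 and 79.5 CPM in adults. Slc11a1, a metal transporter known from macrophages, had 0 UMIs at P5 and 81 and 56 in adults, and Mybph, a myosin-binding protein, 0 UMIs at P5 and 153 and 54 in adults. The interferon-inducible GTPase Igtp and the non-coding Lncpint had 0 UMIs at P5 and 10.1 and 12 CPM at 12w. RP23-235M8.7, a transcript without a described role, was also at 0 at P5, with 19 CPM at 24w. Sncg had 0.304 CPM at P5 and 25.2 and 61.1 CPM in adults and Olfr558 0 CPM at P5 and 18 and 18.2 CPM in adults, both below smooth muscle. The oligodendrocyte genes Mobp and Mog met the rule with 0, 16.7 and 26.4 and 0, 8.77 and 14 CPM. With free RNA subtracted, Sncg and Mobp were left with at most 3 UMIs in each library, so that no ratio could be given.

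The 12 genes furthest below P5 included an imprinted gene, an IGF-binding protein and a cell cycle gene. Dlk1, a paternally expressed inhibitor of differentiation, had 167 UMIs at P5 and 7 and 0 in adults, 44.7-fold (21.2 to 113) lower at 12w and at least 84.6-fold lower at 24w. Fam162b had 313 UMIs at P5 and 2 and 0 in adults, at least 159-fold lower at 24w, and was 2.43 CPM in the other cells at P5, so at P5 it was largely a pericyte gene in this sort. Igfbp4, an IGF-binding protein, fell from 207 to 9.1 and 11.4 CPM. Cpa1, a carboxypeptidase known from the pancreas, had 35.9 CPM at P5 and 0.975 and 0.401 CPM in adults, and Ptpn18, a tyrosine phosphatase, 51.1 CPM at P5 and 1.46 and 3.4 CPM in adults. Klk8, a serine protease, had 17.3 CPM at P5 and 0.812 and 0.20 CPM in adults, and Cdkn3, a phosphatase of the cell cycle, 55.7 CPM at P5 and 2.6 and 2.2 CPM in adults. Car8, Sall3, Etv4, Gpx3 and Grm5 also met the rule, but each was higher in the other cells than in pericytes at P5, for instance Grm5, a glutamate receptor, at 95.7 against 20.1 CPM, and 4.49 in the low-RNA pericytes. With free RNA subtracted, Sall3 and Grm5 were left with at most 3 UMIs in each library, so that no ratio could be given.

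The sequences before the start sites of Spp1 and Dlk1 are shown as the pair whose peaks lay at opposite ages, Spp1 with a promoter peak in the adult libraries alone and Dlk1 at P5 alone. They cover chr5:104434861-104435110 on the + strand, with 3 CG in 250 bases, and chr12:109452573-109452822 on the + strand, with 8 CG in 250 bases.
Spp1: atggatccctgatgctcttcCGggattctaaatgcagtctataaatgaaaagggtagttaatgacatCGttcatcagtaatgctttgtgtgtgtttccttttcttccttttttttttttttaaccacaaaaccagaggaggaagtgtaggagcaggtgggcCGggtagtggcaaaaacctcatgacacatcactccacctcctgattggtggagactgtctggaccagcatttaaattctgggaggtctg
Dlk1: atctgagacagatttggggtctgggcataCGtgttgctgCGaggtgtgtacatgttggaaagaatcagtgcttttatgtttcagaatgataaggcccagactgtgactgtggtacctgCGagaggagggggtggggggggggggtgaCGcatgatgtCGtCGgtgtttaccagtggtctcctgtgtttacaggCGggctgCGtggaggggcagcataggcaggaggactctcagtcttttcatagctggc

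Of 20 mural identity genes outside the selection 6 (30%) were higher in adults, against 12.5% of all genes, and none lower, with median log2 ratios of 0.84 at 12w and 0.79 at 24w. In the other cells of the libraries, of which smooth muscle cells were a larger share in adults, the same genes had medians of 3.18 and 4.16. P2ry14, the receptor for UDP-glucose, had 181 CPM at P5 and 1234 and 989 CPM in adults, 6.81-fold (6.26 to 7.41) and 5.45-fold (5.01 to 5.95) above P5. Colec12, a scavenger receptor, had 59.3 CPM at P5 and 294 and 353 CPM in adults, the matrix protein Ecm2 48.1 CPM at P5 and 260.2 and 229 CPM in adults, and Art3, of the ADP-ribosyltransferase family, 248.9 CPM at P5 and 706 and 769.7 CPM in adults. The other 14, Rgs5, Pdgfrb and Notch3 among them, did not reach 2-fold at both ages. Of 14 mural transcription factors that reached 20 UMIs 1 was higher and 1 lower (7.14% each), under the 12.5% and near the 6.44% over all genes. Heyl was the higher one, at 212 CPM at P5 and 466 and 525 CPM in adults. Meis2 was the lower one, at 24.6 CPM at P5 and 5.69 and 1.4 CPM in adults. Meis2 is also a neuronal gene, and the low-RNA pericytes held 10.5, 1.57 and 0.244 CPM of it. Foxs1 and Foxd1, forkhead factors of mural cells, had 206, 414 and 319 and 80.3, 119.7 and 129 CPM, short of the rule, and Nkx3-2 had 0 UMIs in every library. The list had medians of 0.21 at 12w and 0.27 at 24w. In the Notch list 2 of 15 (13.3%) were higher, near the share over all genes, and none lower, with medians of 0.62 at 12w and 0.78 at 24w, Heyl again and Mfng, a fringe enzyme, whose 4.26, 10.7 and 12.4 CPM came to 2.99, 2.54 and 2.44 in the low-RNA pericytes.

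Solute carriers had the highest medians in pericytes of the lists in the plot by age. The list was of carriers of pericytes and, like the others, was chosen with earlier results of these data known. Of its 15 carriers 11 (73.3%) were higher in adults and 1 (6.67%) lower, against 12.5% and 6.44% over all genes. The median log2 ratio was 1.79 at 12w and 1.83 at 24w, and in low-RNA pericytes 1.98 and 1.90. In the other cells, whose mix of cell types changed with age, the same genes had medians of 2.80 and 3.73. Slc6a20a, which carries proline and other imino acids, had 70.0 CPM at P5 and 906 and 895 CPM in adults, 12.9-fold (11.3 to 14.8) and 12.8-fold (11.2 to 14.7) above P5. In cells thinned to 1000 UMIs, 8.35%, 55.8% and 56.6% of the pericytes held a UMI of Slc6a20a at P5, 12w and 24w, against 0.0853%, 2.63% and 4.76% of the neural cells, and unthinned the pericyte shares were 30.7%, 74.4% and 76.8% at median depths of 5601, 1880 and 2066 UMIs. Slc6a13, a transporter of GABA and taurine also known from leptomeninges, had 11 CPM at P5 and 103 and 134 CPM in adults. Slco3a1, an organic anion carrier, had 24.3 CPM at P5 and 158 and 166 CPM in adults, and Slc22a8, which moves organic anions out of the brain, 70.3 CPM at P5 and 360.3 and 368 CPM in adults, with 70.4, 410.1 and 433 CPM in the low-RNA pericytes. The lower member was Slc4a4, the sodium bicarbonate cotransporter of astrocytes, with 62.4, 9.58 and 19.2 CPM in all pericytes, 21.5, 4.11 and 4.64 in the low-RNA pericytes and 260.5, 52.7 and 75.4 in the other cells.

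**Figure D2:**
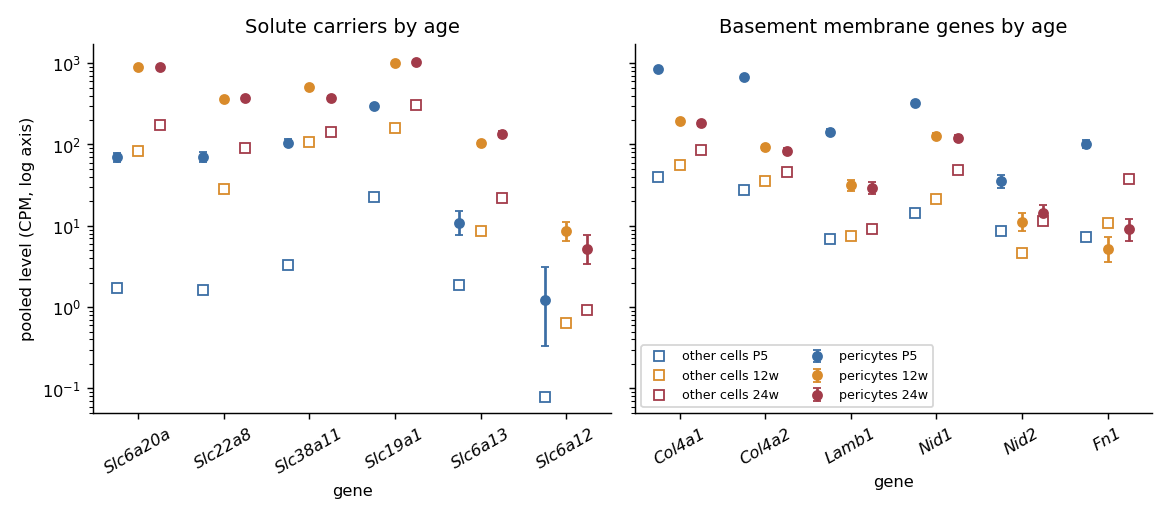
Pooled level (CPM, log axis) of 6 solute carriers (left) and 6 basement membrane genes (right) in pericytes (filled circles, exact 95% Poisson intervals) and in the other cells (open squares) at P5, 12w and 24w. Drawn are 6 of the 11 carriers counted as higher and 6 of the 7 basement membrane genes counted as lower in adults. The 1 lower carrier, the 3 higher basement membrane genes and the members that did not meet the rule are not drawn. The carriers drawn lie higher in adult than in P5 pericytes, as for Slc19a1 at 298, 1006 and 1041 CPM. The basement membrane genes drawn lie lower, as for Nid1 at 323, 129 and 121 CPM.

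Of 21 basement membrane genes 7 were lower, 3 were higher and 11 did not meet the rule, with medians of -0.64 at 12w and -0.75 at 24w. In the other cells of the libraries, whose mix of cell types changed with age, the same genes had medians of 0.60 and 1.45. Col4a1 and Col4a2, the chains of the main type IV collagen, had 838 CPM at P5 and 192 and 181 CPM in adults, and 676 CPM at P5 and 91.9 and 83.3 CPM in adults. Col4a2 was 7.35-fold (6.7 to 8.07) lower at 12w and 8.11-fold (7.3 to 9.03) lower at 24w. Thinned to 1000 UMIs, 54.6%, 18.1% and 17.5% of the pericytes held a UMI of Col4a1, and 2.46%, 1.37% and 2.22% of the neural cells. Unthinned, the shares were 95.6%, 32.5% and 32.6% and 9.78%, 4.72% and 5.71%. Lamb1, a laminin beta chain, had 142 CPM at P5 and 31.4 and 29.2 CPM in adults, and Fn1, fibronectin, 101 CPM at P5 and 5.2 and 9.01 CPM in adults. Itga7, a laminin receptor of mural cells, was among the higher ones with 8.82 CPM at P5 and 77.8 and 77.9 CPM in adults. In smooth muscle Col4a1 went from 726 to 218 and 141 CPM. Type IV collagen of the less common chains took the opposite course in pericytes, Col4a3 and Col4a4 being outside the fixed lists and named after their values were seen. They had 0.609, 33.8 and 41.9 CPM for Col4a3 and 1.22, 17.5 and 18.6 CPM for Col4a4.

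Of 29 genes of interstitial matrix and its enzymes 5 (17.2%) were higher and 8 (27.6%) lower, against 12.5% and 6.44% over all genes, with medians of -0.25 at 12w and -0.25 at 24w. Aspn, the proteoglycan asporin, rose most, with 30.1 CPM at P5 and 589 and 492 CPM in adults, 19.6-fold (16 to 24.1) and 16.3-fold (13.4 to 20.2) above P5. Postn, periostin, fell from 58.4 to 4.55 and 5.61 CPM, and Timp1, an inhibitor of metalloproteinases, from 17.6 to 1.14 and 0.801. Tnc, tenascin-C, also fell, from 51.7 to 5.2 CPM at 12w, but the other cells held 166 CPM at P5 and the low-RNA pericytes 21.5.

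Of 18 ion channel and calcium genes 8 were higher, 1 was lower and 9 did not meet the rule, with medians of 0.75 at 12w and 0.77 at 24w. Kcnk3, an acid-sensitive background potassium channel, had 2.43 CPM at P5 and 28.1 and 28.8 CPM in adults, and Ano1, the calcium-activated chloride channel of contractile pericytes, 36.2 CPM at P5 and 131 and 174 CPM in adults. Trpm4, a sodium-passing channel opened by calcium, had 5.78 CPM at P5 and 17.5 and 20.2 CPM in adults. Trpc6, a receptor-operated cation channel, was the lower member, with 12.8 CPM at P5 and 2.76 and 1.8 CPM in adults. Casr, the calcium-sensing receptor, had 0 UMIs in every library. Of 22 vasoactive receptors and cGMP genes 4 (18.2%) were higher and 3 (13.6%) lower, against 12.5% and 6.44% over all genes, with medians of 0.68 at 12w and 0.65 at 24w. Adra1b, an alpha-1 adrenoceptor, fell from 18.6 to 1.62 and 2.6 CPM, and Ednrb, an endothelin receptor, had 89.5 CPM at P5 and 8.77 and 12 CPM in adults, with 330.4 CPM in the other cells at P5 and 36.9, 6.85 and 8.06 CPM in the low-RNA pericytes. Ptgir, the prostacyclin receptor, had 0.609 CPM at P5 and 3.57 and 6.61 CPM in adults. Agtr1a, the angiotensin II receptor, had 0.304, 3.57 and 3.6 CPM, and did not meet the rule at both ages. Contractile genes gave 3 higher (15.8%) and 1 lower (5.26%) of 19, shares near the 12.5% and 6.44% over all genes, with medians of 0.40 at 12w and 0.36 at 24w. Tpm4, a non-muscle tropomyosin, was the lower one, with 1128 CPM at P5 and 284 and 289.8 CPM in adults, and Lmod1, leiomodin, a higher one, with 5.17 CPM at P5 and 24 and 14.6 CPM in adults. Pln, phospholamban, had 0, 2.44 and 7.21 CPM, short of the rule at 12w, and 17.1, 354 and 407 in smooth muscle.

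Of 31 genes of PDGF, angiopoietin and TGF-beta signalling 5 (16.1%) were higher and 2 (6.45%) lower, near the shares over all genes, with medians of -0.02 at 12w and 0.34 at 24w. Bmp4 had 14.3 CPM at P5 and 122 and 123 CPM in adults, and Tgfbr3, the co-receptor betaglycan, 3.65 CPM at P5 and 17.4 and 18.8 CPM in adults. Angptl4 was lower, with 69.7 CPM at P5 and 6.66 and 4.81 CPM in adults. Pdgfra, a marker of oligodendrocyte precursors and fibroblasts, was lower too, with 61.5, 4.39 and 4.41 CPM in pericytes and 176, 15.6 and 18.5 in the other cells. Of 19 cytokines and angiocrine factors 4 (21.1%) were higher and 2 (10.5%) lower, with medians of 0.41 at 12w and 0.50 at 24w. Cxcl12, the ligand of CXCR4, had 35 CPM at P5 and 424 and 441 CPM in adults, 12.1-fold (10.1 to 14.8) and 12.6-fold (10.4 to 15.3) above P5, and the low-RNA pericytes held 24, 475 and 496 CPM. Wnt5a was lower, with 12.5 CPM at P5 and 2.92 and 1.8 CPM in adults, and Ntf3 had 0 UMIs in every library. The IGF axis and imprinted growth genes gave 1 higher and 6 lower of 16, with medians of -0.49 at 12w and -0.46 at 24w. Igf2, the paternally expressed growth factor, fell from 148 to 19 and 42.5 CPM, and was still at least 4-fold above the other cells at each age. Mest, imprinted likewise, had 70.3 CPM at P5 and 11.7 and 11 CPM in adults.

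Cell cycle genes were low in adult pericytes. Of 28, 16 were lower and 1 higher, with medians of -1.39 at 12w and -1.55 at 24w, and in low-RNA pericytes -2.17 and -1.90. Mki67, the proliferation antigen, had 85.5 CPM at P5 and 7.47 and 6.41 CPM in adults, 11.4-fold (8.35 to 16) and 13.3-fold (9.24 to 19.9) lower than at P5, and the low-RNA pericytes held 88.3, 2.15 and 4.88 CPM. Thinned to 1000 UMIs, 6.45%, 0.247% and 0.237% of the pericytes held a UMI of Mki67, against 3.06%, 1.15% and 1.59% of the neural cells, and unthinned 22.8%, 0.845% and 0.712% and 10.8%, 4.06% and 3.17%. Birc5 and Ccnb2, of chromosome segregation and mitotic entry, had 203, 20.1 and 15.4 and 98, 10.4 and 4.61 CPM. The higher member was Cdkn1b, the inhibitor p27, with 20.1 CPM at P5 and 60.3 and 65.1 CPM in adults. Translation and ribosome genes fell with them, 13 of 24 being lower and none higher, with medians of -1.11 at 12w and -1.16 at 24w, against -0.26 and -0.58 in the other cells. Rplp1, a protein of the ribosomal stalk, had 2829 CPM at P5 and 786 and 788 CPM in adults, and Rps2 2389.7 CPM at P5 and 807 and 793 CPM in adults. All ribosomal protein genes together took 16%, 7.19% and 6.94% of pericyte UMIs and 13.7%, 10.6% and 8.60% of those of the other cells. They took 17.1%, 8.32% and 8.01% in smooth muscle cells and 20.9%, 10.9% and 10.1% in endothelial cells. The fall was thus not particular to pericytes.

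Energy metabolism moved by less. Of 23 genes of oxidative phosphorylation and mitochondria 5 were lower and 1 higher, with medians of -0.58 at 12w and -0.72 at 24w. Ucp2, an inner membrane carrier, had 123 CPM at P5 and 29.1 and 31 CPM in adults, and Uqcrh, of complex III, 1087 CPM at P5 and 477 and 448 CPM in adults. The higher member was Cox4i2, the oxygen-sensitive isoform of cytochrome oxidase subunit 4, with 597 CPM at P5 and 1518 and 1439 CPM in adults. Cox8b had 0 UMIs in every library. Glycolysis and hypoxia genes gave 8 higher (30.8%) and none lower of 26, with medians of 0.37 at 12w and 0.52 at 24w. Bnip3, a hypoxia-induced mitophagy receptor, had 17.3 CPM at P5 and 67.7 and 79.9 CPM in adults, and Pfkl, phosphofructokinase, 36.8 CPM at P5 and 107 and 101 CPM in adults. Slc2a1, the glucose transporter of brain endothelium, had 13.1, 35.9 and 77.9 CPM in all pericytes and 12.5, 26.8 and 41.8 in the low-RNA ones. Lipid handling gave 3 higher (13%) and 5 lower (21.7%) of 23, against 12.5% and 6.44% over all genes, with medians of 0.06 at 12w and 0.18 at 24w, and Cd36 had 0 UMIs in every library. Fabp5, a fatty acid carrier, fell from 1433 to 186 and 188 CPM, and was higher in the other cells at 2602, 669 and 417, with 1324, 97.3 and 71.8 CPM in the low-RNA pericytes. Ptgds, prostaglandin D synthase, had 2.74 CPM at P5 and 56.7 and 178 CPM in adults, against 12.2, 213 and 475 in the other cells and 2.0, 31.1 and 81.8 in the low-RNA pericytes. Of 8 intermediate filament genes Vim and Lmnb1 were lower, Vim at 620.5 CPM at P5 and 117 and 157 CPM in adults, and the list medians were -0.33 at 12w and -0.01 at 24w.

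Interferon response and MHC class I genes were higher in adults in 15 of 29 cases and lower in none, with medians of 1.07 at 12w and 1.49 at 24w. In low-RNA pericytes the medians were 0.89 and 1.39. H2-D1 and H2-K1, the classical class I heavy chains, had 47.5 CPM at P5 and 366 and 487 CPM in adults, and 12.5 CPM at P5 and 86.6 and 134 CPM in adults. H2-D1 was 7.72-fold (6.56 to 9.14) and 10.3-fold (8.73 to 12.1) above P5. The guanylate-binding protein Gbp2 had 0.609 CPM at P5 and 7.8 and 11.6 CPM in adults. In the other cells, whose mix of cell types changed with age, the medians were 2.13 and 3.38. Of 32 immediate early and dissociation genes 6 (18.8%) were higher and 1 (3.12%) lower, against 12.5% and 6.44% over all genes, with medians of 0.39 at 12w and 0.60 at 24w. Hspa1a, an inducible heat shock protein, had 35.3 CPM at P5 and 218 and 337 CPM in adults, Ier3 20.7 CPM at P5 and 101 and 77.5 CPM in adults, and Klf9, which responds to glucocorticoids, 66 CPM at P5 and 272 and 215 CPM in adults. Near-identical copies such as Hspa1a and Hspa1b, and the H2 genes, can share reads, so their split is uncertain.

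**Figure D3:**
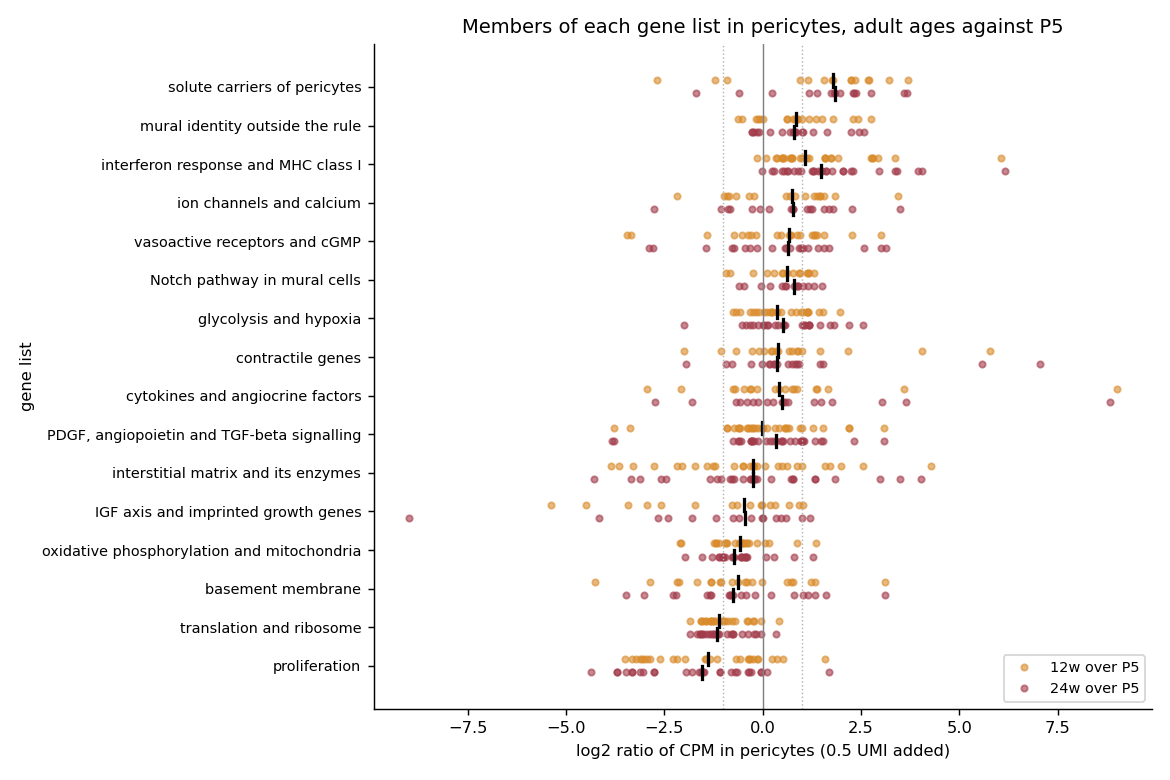
Log2 ratio of pericyte CPM at 12w (orange) and 24w (red) over P5 for every member with at least 20 UMIs at an age of 16 gene lists; each point is a gene, black ticks are list medians, dotted lines mark 2-fold. Solute carriers sit furthest right, with medians of 1.79 at 12w and 1.83 at 24w, and proliferation furthest left, with -1.39 at 12w and -1.55 at 24w.

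Between 12w and 24w, of 11673 genes 431 (3.69%) were at least 2-fold higher at 24w and 91 (0.78%) lower, and for 151 and 17 the whole interval lay past 2-fold. This balance was not kept with free RNA subtracted, at 406 higher and 558 lower, and was closer in pericytes with at least 10 UMIs of Vtn, at 216 and 169. After thinning to 1000 UMIs the counts were 184 and 89, and in low-RNA pericytes 215 and 107. Only 24 of the higher genes were at least 2-fold above the other cells at 24w, and 28 of the lower ones at 12w. The low-RNA pericytes shared 151 and 51 of these genes. The largest rises were the haemoglobin genes Hba-a2, Hbb-bt, Hbb-bs and Hba-a1. Hbb-bs had 36.2, 3.74 and 770.5 CPM in pericytes and 213, 15.3 and 1752 in the other cells. In the marker lists 7 of 15 endothelial, 6 of 7 ependymal and 5 of 5 blood genes were higher at 24w than at 12w, and their part in these counts was not tested. Dmkn and Pvalb had 10.8 and 10.2 CPM at 24w, and 2.2 and 4.64 in the low-RNA pericytes. Slc16a11, a monocarboxylate transporter, kept its level there, with 0.975 CPM at 12w and 19.8 at 24w in all pericytes and 19.5 at 24w in the low-RNA ones.

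Outside the marker and sex-linked lists, clock genes differed most between the adult libraries. Of 16 circadian and steroid response genes 8 were higher and 1 lower at 24w than at 12w. Over all 11673 genes 3.69% were higher and 0.78% lower. The median log2 ratio was 1.11 against 0.04 over all these genes. Against P5, 1 was higher at both ages, Arntl, and 1 lower, Fkbp5 at 11, 2.44 and 2.0 CPM, with medians of -0.13 at 12w and 1.22 at 24w. Dbp, an output transcription factor of the clock, had 47.5 CPM at P5 and 16.1 and 235 CPM in adults, 14.6-fold (11.9 to 18.1) higher at 24w than at 12w. Nr1d1, the repressor REV-ERB alpha, had 11.3 CPM at P5 and 14 and 114 CPM in adults, Nr1d2 15.2 CPM at P5 and 9.58 and 52.9 CPM in adults, and Per3 23.4 CPM at P5 and 10.2 and 60.3 CPM in adults. Arntl, the activator BMAL1, ran the other way between the adult ages, with 13.7 CPM at P5 and 59.8 and 37.5 CPM in adults, though short of 2-fold, and Nfil3, a repressor that binds the same sites as Dbp, fell from 18.7 to 5.81 CPM. Per1 had 9.13, 14.8 and 14.8 CPM. The other cells had 72.3, 32.7 and 104 CPM of Dbp. The time of day of tissue collection is not given in the sources used here, and with 1 library per age it cannot be told apart from age.

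**Figure D4:**
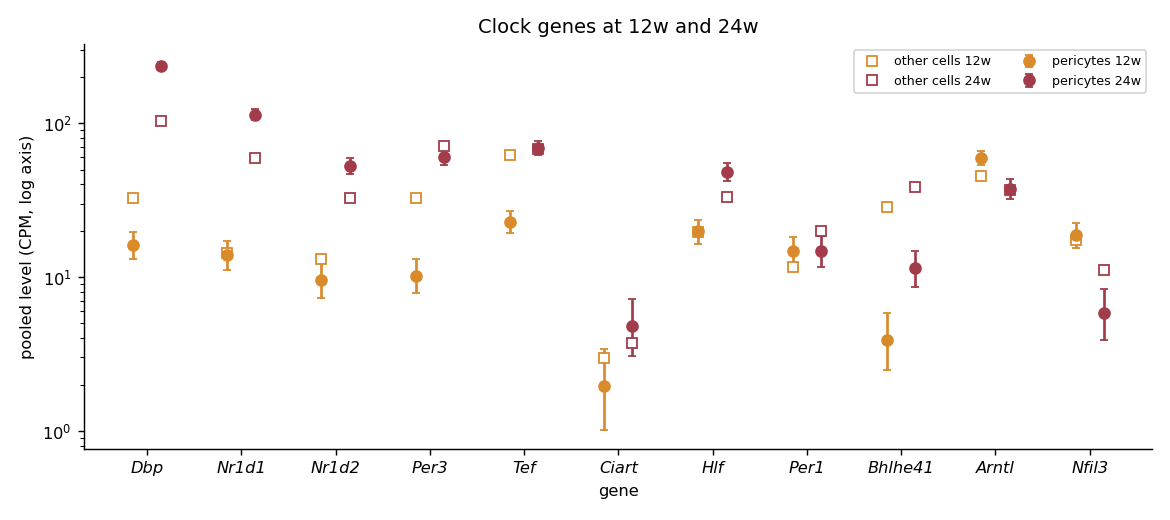
Pooled level (CPM, log axis) of 11 clock genes in pericytes (filled circles, exact 95% Poisson intervals) and in the other cells (open squares) at 12w (orange) and 24w (red). Dbp lies at 16.1 and 235 CPM in pericytes, Nr1d1 at 14 and 114, while Arntl and Nfil3 lie lower at 24w.

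Genes lower at 24w included Tsix, which overlaps Xist on the opposite strand, at 0.913, 19.2 and 1.6 CPM. Pianp, a ligand of the paired immunoglobulin-like receptor, had 13.1 CPM at P5 and 90.6 and 10.0 CPM in adults, thus high at 12w alone, and in the low-RNA pericytes 10.5, 99.2 and 6.59 CPM. Fibin had 1.52 CPM at P5 and 14.6 and 2.6 CPM in adults, Zmat4 20.7 CPM at P5 and 12.7 and 4.41 CPM in adults, and Rbm45, an RNA-binding protein, 8.52 CPM at P5 and 26.6 and 8.81 CPM in adults. Rpe, of the pentose phosphate pathway, had 17.6, 26.6 and 10.4 CPM and Tiam2, a Rac exchange factor, 0.609, 8.12 and 1.6 CPM. For Rbm45 and Rpe the other cells held 7.96, 30.9 and 8.32 and 18.5, 23.3 and 11.1 CPM.

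Pericytes of the same library varied most in genes of other cell types. For 1946 genes with a mean of at least 0.2 UMIs per pericyte in each library, the variance beyond Poisson counting, given each cell's total and divided by the squared mean, had medians of 0.0864, 0.137 and 0.171. It exceeded 0.5 for 151, 333 and 385 genes, and for 123 at every age. Of the 15 genes with the highest lowest-of-3 value, Thrsp, Igfbpl1, Tubb3, Mt2, Slc1a2, Nfix, Sox11, Slc1a3, Clu, Htra1, Plpp3, Hist1h2bc and Ntsr2 were higher in the other cells than in pericytes at each age. For Clu the excess was 2.44, 39.5 and 17.5 in all pericytes. Hspa1a, the heat shock gene, had 5.34, 15.2 and 9.67 in all and 4.28, 16.9 and 10.7 in the low-RNA pericytes. Nts was the pericyte gene among the 15, with 3.42, 3.96 and 3.72 in all pericytes and 3.32, 4.61 and 3.77 in the low-RNA ones. Further pericyte genes were chosen after their values were seen. Mgp, matrix Gla protein, had 2.14, 1.09 and 1.47, Sfrp2, a Wnt inhibitor, 1.07, 2.39 and 2.21, and Ifitm1, an interferon-induced membrane protein, 0.897, 0.668 and 0.736. By comparison Vtn had 0.426, 0.493 and 0.526, and Rgs5 0.198, 0.374 and 0.451.

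Chromatin over pericyte promoters was read from the deposited scATAC-seq peak lists, which hold 143199, 161584 and 134612 peaks, covering 137463420, 178729356 and 148720620 bases. The peaks are of whole libraries and were not assigned to cell types, and the share of pericytes in these libraries was not measured here. Of the 71 genes higher in pericytes 45 matched a RefSeq promoter, 250 bases before to 50 after the start. Only the first listed start site of a gene was used, so that a peak over another start site is not counted. A peak overlapped this window, by at least 1 base, in 30 (66.7%), 40 (88.9%) and 39 (86.7%) of them. Over the 9042 matched promoters of all genes with 20 UMIs in pericytes the shares were 95.5%, 96.5% and 96.1%. In 9 of the 45 (20%) the peak was listed at both adult ages and not at P5, against 94 of 9042 (1.04%), and in none was it at P5 alone. The 9 were Art3, Caln1, Cd80, Ffar2, Gm33370, Nts, Pth1r, Ptpn22 and Tfpi.

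Where a peak was listed at every age it was longer in adults. Of the 30 such promoters 29 (96.7%) had a longer peak at both 12w and 24w than at P5, and in 10 (33.3%) it was at least 3 times as long, with median lengths of 1708, 4226 and 4354 bases. For all expressed genes 3956 of 8596 (46.0%) were longer at both ages and 201 (2.34%) at least 3 times, with medians of 2160, 2322 and 2175 bases. Of the 39 promoters of genes lower in pericytes 6 (15.4%) were longer and 0 reached 3 times. Slc6a20a, whose RNA rose as given above, had peaks of 939, 12305 and 12496 bases. The peak over Vtn, whose sequence is printed above, was 3764, 10049 and 10853 bases long, and that over Kcnj8 2256, 15343 and 15385. Abcc9, next to Kcnj8 on chromosome 6, had 1339, 9069 and 9440 bases, Atp13a5 329, 11957 and 13789, and Rgs5 1856, 28491 and 28516. The peaks over the astrocyte genes Gfap and Fabp7 were 4497, 4394 and 3373 and 4329, 4383 and 3320 bases. Some other vascular genes, named after their values were seen, had longer peaks in adults as well, with 2342, 9685 and 9541 bases over Myl9 and 1371, 3819 and 5210 over Mustn1 of the smooth muscle list and 2602, 6303 and 6439 over the endothelial receptor Flt1, so that longer peaks were not particular to pericyte genes. Not every vascular gene had them, the peak over the endothelial marker Kdr being 4167, 4396 and 3188 bases long, and the marker lists were not tallied. The share of pericytes in the RNA libraries of the same sort moved in the same direction, from 3.85% to 53.1% and 75.3%, and its part in the peak lengths was not tested.

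**Figure D5:**
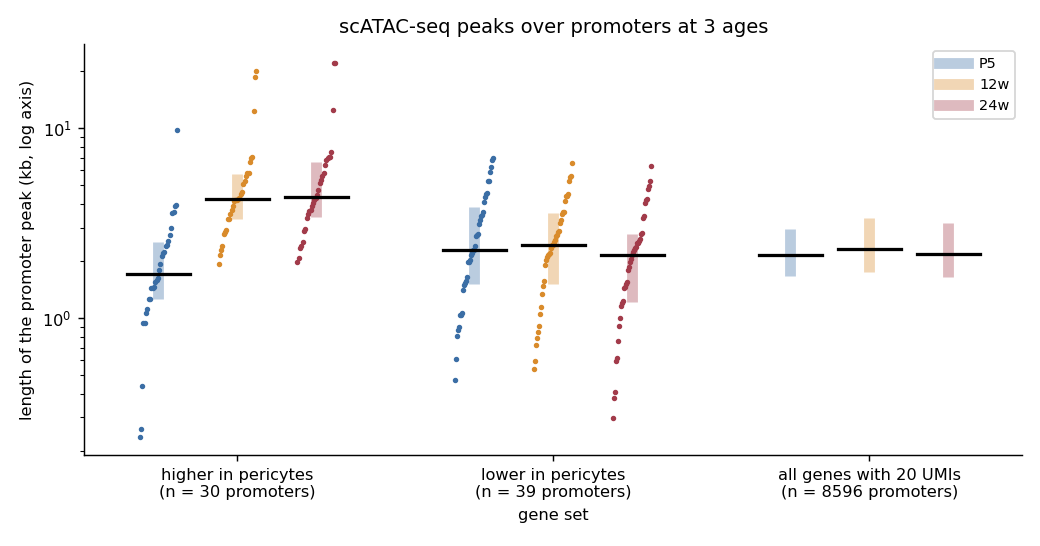
Length of the scATAC-seq peak over the promoter (kb, log axis) at P5, 12w and 24w for genes at least 4-fold higher in pericytes, genes at least 4-fold lower and all genes with 20 UMIs, where a peak was listed at every age. Points are promoters (not drawn for all genes), black lines medians and shaded bars quartiles. The pericyte set has medians of 1.71, 4.23 and 4.35 kb, above its P5 value in both adult libraries, and the other sets stay between 2.15 and 2.43 kb.

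Peaks were then set beside the RNA changes with age. Of the 189 genes higher in adults and above the other cells 126 matched a promoter, and 12 (9.52%) had a peak at both adult ages alone, Spp1, Aspn and Ecm2 among them. Of 101 with a peak at every age 91 (90.1%) were longer in adults, 30 (29.7%) at least 3 times. Selection genes were not left out of this set, and Kcnj8 and Atp13a5 were among the 30. Over Spp1 no peak was listed at P5, and peaks of 1711 and 3165 bases at 12w and 24w. Nts, whose RNA did not differ 2-fold, likewise had none, 1213 and 1322 bases. Of the 164 lower genes 114 matched, and 6 (5.26%), Col3a1 and Nid1 among them, had a peak at both adult ages alone, against 1.04% of all expressed genes. Here 57 of 93 peaks (61.3%) were longer in adults, 5 (5.38%) at least 3 times, shares between those of the higher genes and the 46.0% and 2.34% of all expressed genes. A peak at P5 alone was listed for 1 gene of each set, Schip1 of the higher and Dlk1, with 1531 bases, of the lower. No peak was listed over the promoter windows of Ccl19, P2ry14 and Pde4c at any age. The same held for the astrocyte gene Slc1a2. Other start sites of these genes were not looked at, so that a missing peak does not show a closed promoter. Promoters with a peak at both adult ages alone were poor in CG dinucleotides, with a median of 3 in the 250 bases before the start over all 17999 matched promoters, against 16 where a peak was listed at every age.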

How the data were processed

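The scRNA-seq values are raw UMI counts per gene and barcode, which the authors made with Cell Ranger 2.2.0 (mm10) and deposited, and they were used without normalization. The scATAC-seq peak positions, also of mm10, were deposited per library. The submitters' notes name Cell Ranger and MACS2, and which of them made this list is not given in the sources used here. UMIs were pooled (Python 3.11.15; pandas 2.3.3, scipy 1.17.1 and numpy 2.4.6) over pericytes, smooth muscle cells, endothelial cells and all other cells of each library. Log2 ratios have 0.5 UMIs added to each count. Doublets, called with scrublet in scanpy 1.11.5, were 752, 85 and 2 cells and were kept (56, 71 and 1 of them pericytes). At 24w the caller marked 2 of 2797 cells, so it gives little information there.

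The members, the 32 gene lists and the tests were chosen with earlier results of these data known. Genes were named by rank. For pericytes against other cells these were the 10 largest ratios each way by the smallest of the 3 libraries, for adults against P5 the 12 each way by the smaller ratio, for 24w against 12w the 8 each way, and for variation the 15 highest by the lowest library, all with at least 50 UMIs where higher (except for variation). Unnamed loci, sex-linked, mitochondrial and selection genes were left out. From each list the 2 to 4 members furthest from P5 are given, with some others chosen for their role after their values were seen. Cells are not replicates, so no test over cells was run. The rule of size was tested on simulated counts. Alternatives were other folds and count minimums, TMM factors of edgeR 4.0.16, median scaling, equal weight per cell, thinning, doublet removal, other selection thresholds, free RNA subtraction, P5 cells of 1 sex, other comparators and leaving out a library. Bulk RNA-seq and the other assays of the study were not used here.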

Additional observations from a re-analysis of the deposited data

How the results depend on the processing

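No paired analysis was possible because each age had 1 library, so that the ages share no more than 1 replicate number. Where the construction of an alternative does not give the cause, the cause was not tested.

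The genes higher at both adult ages (1485) became 2979 at 1.5-fold, 610 at 3-fold, 2270 with at least 1 UMI and 189 where only genes 2-fold above the other cells were kept. The lower genes (767) became 1468, 378, 1700 and 164 under these, 499 with at least 50 UMIs, 406 after thinning to 1000 UMIs and 390 with P5 pericytes of the adult library's sex, for which no comparison of 24w with 12w could be had. Genes higher at 24w than at 12w (431) became 1072, 192, 2478 and 24 under the first 4, 152 with 50 UMIs, 184 after thinning, 280 in pericytes without endothelial UMIs, 216 with Vtn of at least 10 UMIs and 215 in low-RNA pericytes. The lower ones (91) became 357, 24, 1188 and 28, 39 with 50 UMIs, 169 with Vtn of at least 10 and 558 with free RNA subtracted. Against other cells the 71 higher and 67 lower genes became 337 and 992 at 2-fold and 8 and 0 at 8-fold. Without smooth muscle and endothelial cells among the others they were 369 and 169, and after thinning 44 and 160. Without the 24w library they were 261 and 302. The lower genes alone moved to 203 without the P5 library, 110 without the 12w library, 27 with 50 UMIs, 132 without doublets and 709 in low-RNA pericytes. Pericytes at P5 (527) were 347 with Vtn of at least 10 and 341 as low-RNA pericytes, and with at least 2000 UMIs there were 1163 at 12w (2839) and 1148 at 24w (2107).

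Of the list medians 620 moved by at most 0.5 and 50 moved further, each set against the unaltered median of the same members. Another 7 reversed, which was counted only where the unaltered median was at least 2-fold from no change. A change of sign in a smaller median therefore falls under the first 2 groups. Of the values of named genes 785 stayed within the counting interval of the unaltered value, 131 left it and 2 reversed. For 5 list medians and 10 values of named genes no ratio could be given, since all or at least 50% of the members had at most 3 UMIs at both ages compared, mostly with free RNA subtracted. The blood list at 24w turned to a log2 ratio of -0.41 in pericytes without endothelial UMIs, -0.058 with Vtn of at least 10 and -0.0395 in low-RNA pericytes, from which cells rich in haemoglobin were left out. With free RNA subtracted, taken as 29.2%, 31.7% and 45.5% of pericyte UMIs from neural markers, with a profile that holds pericyte RNA and that at P5 had to come from the cells, the selection genes turned to -0.25 and -0.45 and smooth muscle genes to -0.71 and -4.10, where Acta2 and Tagln were emptied in adults. Against other cells without smooth muscle and endothelial cells Sncg came to 0.50 at 12w and Ngb to 0.74 at 24w. The depth limits what can be seen at P5, where 527 cells gave the fewest UMIs.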
